A study of Gallus gallus with 12 samples.

Results

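The genes described here make or move dopamine and noradrenaline or encode transcription factors of the neurons that use them: TH, DBH, SLC6A2, PHOX2A, PITX3, LMX1A, LMX1B and NR4A2. Rows of the deposited count table were taken where the gene name matched one of these 8 symbols, which found 6 of them among 30742 rows. PITX3 was read from a row without a symbol whose deposited description names pituitary homeobox 3. PHOX2A had no usable row, and both are kept apart from the 6 in every count of members. White Leghorn chicken embryos were sampled on embryonic day 18, and RNA-seq libraries were made from hypothalamus and from whole brain. ETM (embryonic thermal manipulation) eggs were held at 39.5 °C from day 13 to day 18, and CT (control) eggs stayed at 37.8 °C. There were 3 libraries each of ETM hypothalamus, CT hypothalamus, ETM whole brain and CT whole brain, 12 in all, with 13309467 to 18317019 counts per library. The submitters describe biological replicates without stating if each library is 1 embryo or a pool, so the p-values speak for the spread among these samples.

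Dopamine and noradrenaline are catecholamines, made from tyrosine in a short chain of enzymes. Tyrosine hydroxylase carries out the rate-limiting step, aromatic amino acid decarboxylase then yields dopamine, and dopamine β-hydroxylase turns dopamine into noradrenaline inside the vesicle. In vertebrate brains dopamine neurons lie mainly in the ventral midbrain and in groups of the hypothalamus, noradrenaline neurons lie in the hindbrain, above all in the locus coeruleus, and both send axons widely. In bulk tissue, fewer cells of a type and less RNA per cell cannot be told apart.

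The labelled tissue was compared with its markers first. NKX2-1, a homeobox gene that defines much of the hypothalamus, measured 0, 1.25 and 0 CPM (counts scaled to library size, with factors set between libraries by TMM) in ETM hypothalamus and 0, 0 and 0.138 CPM in CT hypothalamus. It measured 4.89 to 5.49 CPM in ETM whole brain and 4.86 to 6.53 CPM in CT whole brain. Of 22 hypothalamus markers tested between CT tissues, 6 were higher in hypothalamus by label and 10 were lower. Of all genes tested between CT tissues, 16.7% were higher and 34.3% differed in either direction. VIP was among the higher markers, at 29.6 to 31.7 CPM in CT hypothalamus against 8.42 to 14.9 CPM in CT whole brain. POMC, OXT, FEZF1 and SIX6 were each below 1 CPM in all 6 hypothalamus libraries. Genes of the midbrain and of serotonin neurons were instead abundant there. EN1, a midbrain and anterior hindbrain factor, measured 68.0, 24.8 and 40.0 CPM in ETM hypothalamus and 52.6 to 66.7 CPM in CT hypothalamus, against 6.62 to 9.86 CPM in ETM whole brain and 6.68 to 9.18 CPM in CT whole brain. The tissue names below are those of the labels, and the part that this composition has in the results was not tested.

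One library needs care throughout. The FPKM values of ETM hypothalamus library 1 (reads scaled to gene length and library size) matched its own counts for 32.8% of genes, against 100% in the other 11 libraries. Whole reads could be recovered from that FPKM column, 12161593 in all against 13326994 in the count column. The 2 columns gave 746 recovered and 918 counted reads for TH, but 174 recovered and 45 counted reads for DBH. Values below are the counts, and results of members that turn on this library are also given with the recovered reads or without it. The later comparison of gene profiles used the counts alone.

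TH encodes tyrosine hydroxylase (ENSGALG00010026940, chromosome 5, 13321388 to 13349785, plus strand, build GRCg7b). It measured 74.7, 14.6 and 16.3 CPM in ETM hypothalamus libraries 1, 2 and 3, against 38.1, 72.5 and 73.8 CPM in CT hypothalamus. It measured 3.72, 2.78 and 3.37 CPM in ETM whole brain and 3.24, 3.66 and 3.64 CPM in CT whole brain. ETM hypothalamus libraries 2 and 3 lay below every CT hypothalamus library, while library 1 was the highest of the 6 on its counts, so the groups overlapped. With recovered reads TH stood at 68.9 CPM in library 1, inside the CT range, and the groups still overlapped. The whole brain groups also overlapped, and every whole brain library was below every hypothalamus library.

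Heat exposure gave TH a log2 fold change, ETM over CT, of −0.83 ± 0.54 in the hypothalamus (SE, n = 3 against 3, edgeR quasi-likelihood test, Benjamini-Hochberg adjusted p = 0.642). The adjusted p was 0.656 with recovered reads in library 1, at −0.91. Without that library the log2 fold change was −2.00, with an edgeR adjusted p of 0.0519, and with each library left out in turn it ran from −2.00 to −0.46. In whole brain the log2 fold change was −0.13 ± 0.22 (edgeR adjusted p = 0.654). Between tissues TH was higher in hypothalamus in both treatments, by 3.40 ± 0.56 in ETM embryos (edgeR adjusted p = 0.000178) and by 4.13 ± 0.57 in CT embryos (edgeR adjusted p = 0.000101), on the log2 scale. The difference between the tissues in the ETM effect was −0.73 ± 0.78 (edgeR adjusted p = 0.528), and −1.88 without ETM hypothalamus library 1 (edgeR adjusted p = 0.005).

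DBH encodes dopamine β-hydroxylase, the enzyme that sets noradrenaline neurons apart from dopamine neurons (ENSGALG00010028879, chromosome 17, 7619372 to 7630881, plus strand). It measured 3.66, 0.436 and 9.19 CPM in ETM hypothalamus and 17.3, 3.21 and 31.3 CPM in CT hypothalamus. It measured 1.71, 0.860 and 0.132 CPM in ETM whole brain and 3.50, 1.04 and 1.75 CPM in CT whole brain. Library 2 was the lowest of the 3 in both hypothalamus groups, and the groups overlapped in each tissue. No other member varied as much within a group. The highest DBH value was 21.1 times the lowest in ETM hypothalamus, 9.74 times in CT hypothalamus, 12.9 times in ETM whole brain and 3.38 times in CT whole brain. The lowest of these values rests on 2 reads, in ETM whole brain library 3, and the next on 7 reads, in ETM hypothalamus library 2.

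The DBH log2 fold change for heat exposure was −1.95 ± 0.86 in the hypothalamus (edgeR adjusted p = 0.48) and −1.24 ± 0.64 in whole brain (edgeR adjusted p = 0.139). With recovered reads, which put library 1 at 16.1 CPM, the hypothalamus value was −1.04 (edgeR adjusted p = 0.766), and it ran from −3.14 to −1.20 with each library left out. The whole brain value passed in 1 of 17 alternatives. It was −2.11 without ETM whole brain library 1 (edgeR adjusted p = 0.0361), −0.64 without CT whole brain library 1 (edgeR adjusted p = 0.482) and −0.74 without ETM whole brain library 3 (edgeR adjusted p = 0.313). DBH was higher in CT hypothalamus than in CT whole brain by 3.04 ± 0.93 on the log2 scale (edgeR adjusted p = 0.0224), although the lowest CT hypothalamus library lay below the highest CT whole brain library. That call was lost in 5 of 18 alternatives, with adjusted p from 0.0761 to 0.122: limma at either pseudocount, and leaving out CT hypothalamus library 3 or CT whole brain library 2 or 3. In ETM embryos the tissue difference was 2.27 ± 1.02 (edgeR adjusted p = 0.0682), and it passed in 3 of 18 alternatives. It was 3.20 with recovered reads (edgeR adjusted p = 0.0255), 2.82 without ETM hypothalamus library 2 (edgeR adjusted p = 0.0172) and 1.10 without ETM hypothalamus library 3 (edgeR adjusted p = 0.403).

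Since noradrenaline neurons use both enzymes and dopamine neurons use TH alone, the DBH share of the reads of the pair was taken within each library. It was 4.67%, 2.91% and 36.1% in ETM hypothalamus libraries 1, 2 and 3, with exact 95% binomial intervals of 3.43 to 6.20, 1.18 to 5.89 and 31.4 to 41.0. In CT hypothalamus it was 31.2%, 4.24% and 29.8%, with intervals of 27.96 to 34.7, 3.24 to 5.44 and 27.5 to 32.1. Both groups thus held at least 1 library at 29.8% or more and at least 1 below 5%, and the gaps between those libraries were far wider than the counting error that the intervals cover. The recovered reads of ETM hypothalamus library 1 gave 18.9% (16.4 to 21.6). In whole brain, on fewer reads, the share was 31.5%, 23.6% and 3.77% in ETM libraries and 51.9%, 22.1% and 32.5% in CT libraries.

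**Figure D1:**
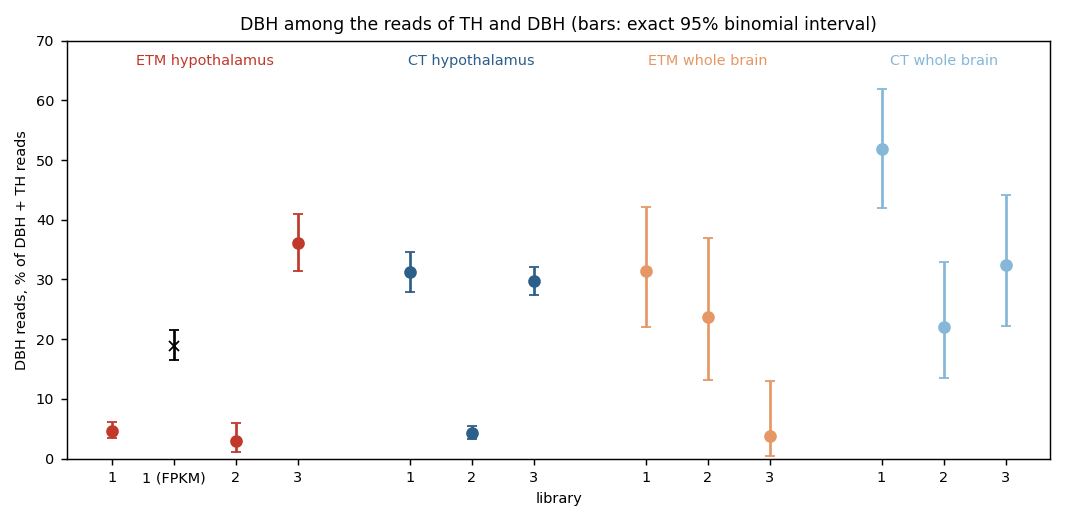
DBH reads as a percentage of DBH plus TH reads (vertical axis) in each of the 12 libraries (horizontal axis), with exact 95% binomial intervals as bars; the cross is ETM hypothalamus library 1 with reads recovered from its FPKM values. ETM hypothalamus libraries 1 and 2, CT hypothalamus library 2 and ETM whole brain library 3 lie below 5%, the others between 22.1% and 51.9%.

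SLC6A2 encodes the noradrenaline transporter, which takes released noradrenaline, and dopamine, back up from the synapse (ENSGALG00010025392, chromosome 11, 3214288 to 3278428, minus strand). It measured 39.3, 9.90 and 13.4 CPM in ETM hypothalamus, against 34.1, 47.5 and 57.9 CPM in CT hypothalamus. As for TH, ETM libraries 2 and 3 lay below all CT libraries, and library 1 lay among them on its counts. With recovered reads SLC6A2 stood at 30.5 CPM in library 1, below every CT hypothalamus library. In whole brain it measured 6.83, 6.81 and 7.34 CPM in ETM libraries and 6.29, 3.97 and 4.48 CPM in CT libraries, so all 3 ETM libraries were above all 3 CT libraries. The share of all genes with that order was not counted, and 26% had the reverse order.

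Heat exposure gave SLC6A2 a log2 fold change of −1.18 ± 0.43 in the hypothalamus (edgeR adjusted p = 0.39) and 0.47 ± 0.21 in whole brain (edgeR adjusted p = 0.0884), so neither passed. Without ETM hypothalamus library 1 the hypothalamus value was −2.00 and passed (edgeR adjusted p = 0.0427). Without CT whole brain library 1 the whole brain value was 0.69 and passed (edgeR adjusted p = 0.0209). With each library left out the values ran from −2.00 to −0.84 in the hypothalamus and from 0.32 to 0.69 in whole brain. The difference of the ETM effect between tissues was −1.68 ± 0.58, with an edgeR adjusted p of 0.0504, and it passed in 11 of 23 alternatives, among them recovered reads, at −1.90 (edgeR adjusted p = 0.0303). Leaving out a library gave −2.48 without ETM hypothalamus library 1 (edgeR adjusted p = 0.00137) and −1.86 without CT hypothalamus library 1 (edgeR adjusted p = 0.0496). SLC6A2 was higher in hypothalamus by 1.56 ± 0.41 in ETM embryos (edgeR adjusted p = 0.00505) and by 3.24 ± 0.43 in CT embryos (edgeR adjusted p = 7.64e-05), with no overlap between tissues in either treatment.

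**Figure D2:**
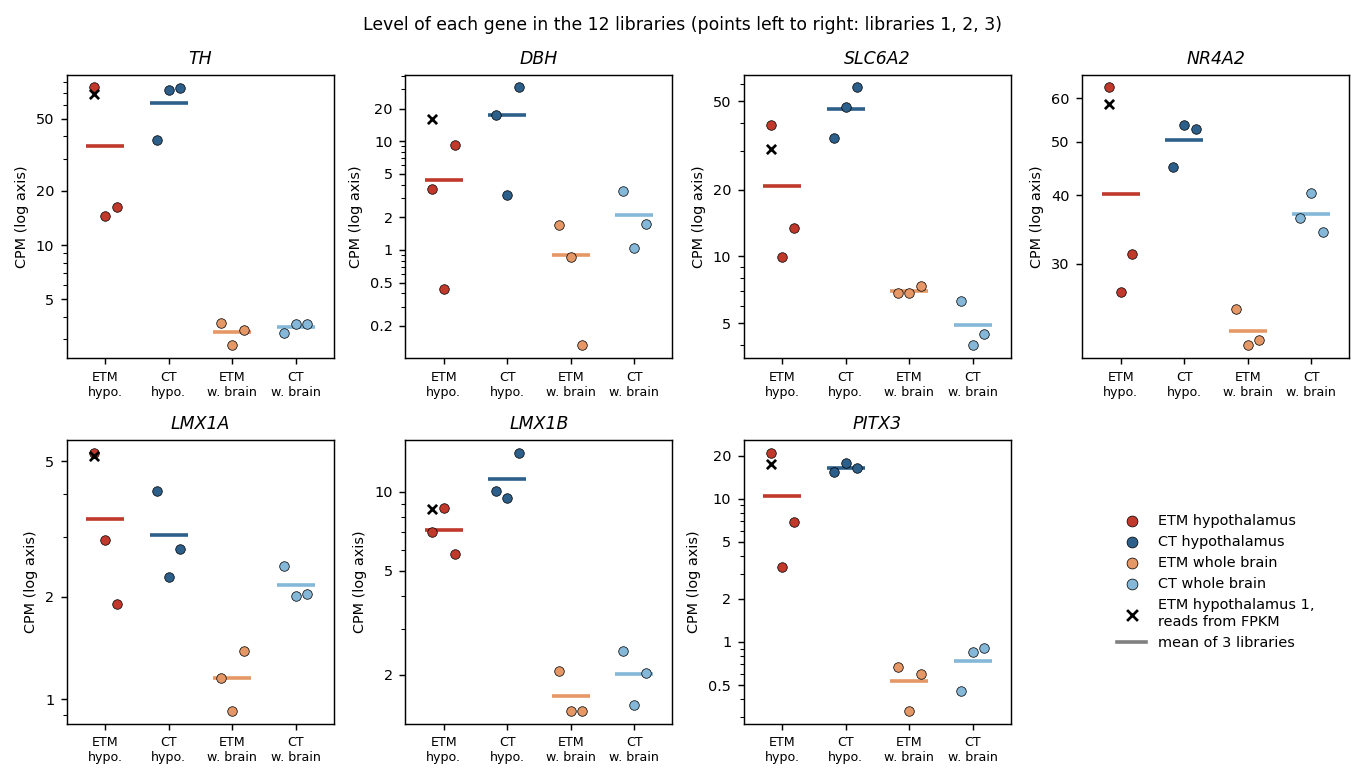
Level of TH, DBH, SLC6A2, NR4A2, LMX1A, LMX1B and PITX3 in CPM (log vertical axis) in ETM and CT hypothalamus and in ETM and CT whole brain; each point is 1 library, lines are means of 3 libraries, and crosses are ETM hypothalamus library 1 with reads recovered from FPKM. For TH, SLC6A2, NR4A2 and PITX3, ETM hypothalamus libraries 2 and 3 lie below all CT hypothalamus libraries and library 1, as counted, does not. The cross of SLC6A2 lies below all CT hypothalamus libraries.

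NR4A2, also called NURR1, is a nuclear receptor that dopamine neurons of the mouse midbrain need to form and to keep expressing Th, and it is made in many other neurons too (ENSGALG00010010499, chromosome 7, 35644137 to 35650101, minus strand). It measured 24.8, 21.3 and 21.8 CPM in ETM whole brain, against 36.4, 40.3 and 34.3 CPM in CT whole brain. Every ETM whole brain library was below every CT whole brain library. The gene fell by 0.75 on the log2 scale (SE 0.11, edgeR adjusted p = 0.000398), and this call held in 17 of 17 alternatives. In the hypothalamus it measured 62.8, 26.7 and 31.2 CPM in ETM libraries and 45.0, 53.6 and 52.7 CPM in CT libraries. The hypothalamus groups overlapped through ETM library 1 alone, and the log2 fold change was −0.34 ± 0.27 (edgeR adjusted p = 0.719). Without that library it was −0.80 (edgeR adjusted p = 0.0639), in a range of −0.80 to −0.11 over the libraries left out. The ETM effect on NR4A2 differed between the tissues by 0.38 ± 0.34 (edgeR adjusted p = 0.441), so a response of whole brain alone was not shown.

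NR4A2 had the smallest estimated difference between tissues of the 6 members. It was higher in hypothalamus by 0.82 ± 0.24 in ETM embryos (edgeR adjusted p = 0.00995), and by 0.45 ± 0.24 in CT embryos, where it did not pass (edgeR adjusted p = 0.165). A fit of the 6 CT libraries alone gave 0.44 and passed (edgeR adjusted p = 0.0108).

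LMX1A and LMX1B are related LIM-homeodomain factors. In mouse, both take part in making midbrain dopamine neurons, and Lmx1b is also needed by serotonin neurons. LMX1A (ENSGALG00010010535, chromosome 8, 5159893 to 5183854, plus strand) measured 1.16, 0.926 and 1.39 CPM in ETM whole brain and 2.46, 2.01 and 2.03 CPM in CT whole brain. The groups did not overlap, and LMX1A fell by 0.94 on the log2 scale (SE 0.30, edgeR adjusted p = 0.0261). These levels rest on 14 to 38 reads per library, and the call was lost in 6 of 17 alternatives, with adjusted p from 0.0609 to 0.0928. They were DESeq2, 1 fit of all 12 libraries, the W-linked covariate, and leaving out CT whole brain library 1 or ETM whole brain library 1 or 2. In the hypothalamus LMX1A measured 5.29, 2.93 and 1.90 CPM in ETM libraries and 4.08, 2.29 and 2.76 CPM in CT libraries. The CT range lay inside the ETM range, at a log2 fold change of 0.14 ± 0.40 (edgeR adjusted p = 0.942). LMX1A was higher in hypothalamus than in whole brain by 1.52 ± 0.38 in ETM embryos (edgeR adjusted p = 0.00357), and by 0.48 ± 0.36 in CT embryos, where it did not pass (edgeR adjusted p = 0.332). The test of the difference between those values gave 1.05 ± 0.52 (edgeR adjusted p = 0.159).

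LMX1B (ENSGALG00010028911, chromosome 17, 10665490 to 10780807, plus strand) measured 6.996, 8.71 and 5.77 CPM in ETM hypothalamus, against 10.0, 9.47 and 14.1 CPM in CT hypothalamus. On the counts, it was the only one of the 6 members with every ETM hypothalamus library below every CT one. That order was also shown by 7.75% of 15405 genes tested. With recovered reads in ETM hypothalamus library 1, LMX1B stood at 8.59 CPM there and kept that order. SLC6A2, at 30.5 CPM there, then had it too. The LMX1B log2 fold change of −0.65 ± 0.23 did not pass (edgeR adjusted p = 0.377). In whole brain it measured 2.07, 1.46 and 1.46 CPM in ETM libraries and 2.46, 1.53 and 2.03 CPM in CT libraries, which overlapped (log2 fold change −0.31 ± 0.31, edgeR adjusted p = 0.452). LMX1B was higher in hypothalamus by 2.10 ± 0.27 in ETM embryos (edgeR adjusted p = 2.04e-05) and by 2.48 ± 0.26 in CT embryos (edgeR adjusted p = 1.28e-05), and the tissues did not overlap.

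PITX3, a homeobox factor that midbrain dopamine neurons of the mouse substantia nigra need, was read from the row ENSGALG00010020809 (chromosome 6, 17571473 to 17589429, minus strand), which overlaps RefSeq's PITX3 on the same build. It measured 21.0, 3.36 and 6.91 CPM in ETM hypothalamus, against 15.4, 17.8 and 16.4 CPM in CT hypothalamus. The CT hypothalamus libraries lay within 1.15 times of each other, while the ETM ones spanned 6.25 times on the counts, from below all CT libraries to above them. With recovered reads PITX3 stood at 17.6 CPM in ETM hypothalamus library 1, inside the CT range. In whole brain it stayed below 1 CPM, at 0.671, 0.331 and 0.595 CPM in ETM libraries and 0.454, 0.854 and 0.911 CPM in CT libraries. Neither treatment comparison passed, with −0.70 ± 0.50 in the hypothalamus (edgeR adjusted p = 0.676) and −0.50 ± 0.47 in whole brain (edgeR adjusted p = 0.406). Without ETM hypothalamus library 1 the hypothalamus value was −1.69 (edgeR adjusted p = 0.0788), in a range of −1.69 to −0.27 over the libraries left out. The tissue difference was large in both treatments, 4.25 ± 0.60 in ETM embryos (edgeR adjusted p = 4.95e-05) and 4.47 ± 0.58 in CT embryos (edgeR adjusted p = 6.60e-05).

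PHOX2A is a homeobox factor of noradrenaline neurons. The only row described as similar to mouse Phox2a is an unplaced one that held 0, 1 and 3 reads in ETM hypothalamus and 3, 1 and 9 reads in CT hypothalamus. For ETM hypothalamus library 1 the recovered reads gave 8, where the counts gave 0. The row held 0 reads in all ETM whole brain libraries and 0, 0 and 1 in CT whole brain. At this depth 3 reads correspond to 0.163 to 0.244 CPM, so most of these values are at or under what a count of 0 allows, and the row was not tested.

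Counted over the 6 members, heat exposure gave 0 calls in the hypothalamus, where 0.0454% of all genes tested were called, 7 in number. At an unadjusted edgeR p below 0.05 there were 3 members, DBH, SLC6A2 and LMX1B, where 10.3% of all genes passed. The median log2 fold change over all 6 members was −0.74, beside 0.01 over all genes. In whole brain 2 of 6 members were called, both lower, where 44.3% of all 15305 genes tested were called, so this count is near the background. The same 2 members, NR4A2 and LMX1A, had every ETM library below every CT library, beside 26% of all genes. SLC6A2 had every ETM library above every CT library, and the share of all genes with that order was not counted. The median over members in whole brain was −0.53, beside 0.01 over all genes. For the difference of the ETM effect between tissues 0 of 6 were called, with 1 at an unadjusted edgeR p below 0.05 (SLC6A2), while 24.2% of 16201 genes were called. With DESeq2 the counts of members called for these 3 comparisons were 0 in the hypothalamus, 1 in whole brain (NR4A2) and 0 for the difference.

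Between tissues, 5 of 6 members were called in ETM embryos, TH, SLC6A2, LMX1A, LMX1B and NR4A2, all higher in hypothalamus. Of all genes 58.9% were called in that comparison and 29.3% were called higher. In CT embryos 4 of 6 were called, TH, DBH, SLC6A2 and LMX1B, again all higher, where 34.3% of genes were called and 16.7% were higher. The median tissue difference of the members was 1.83 in ETM embryos and 2.76 in CT embryos, beside 0.01 over all genes in each. The ETM and CT tissue differences share no libraries, but each of them shares libraries with both treatment comparisons.

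**Figure D3:**
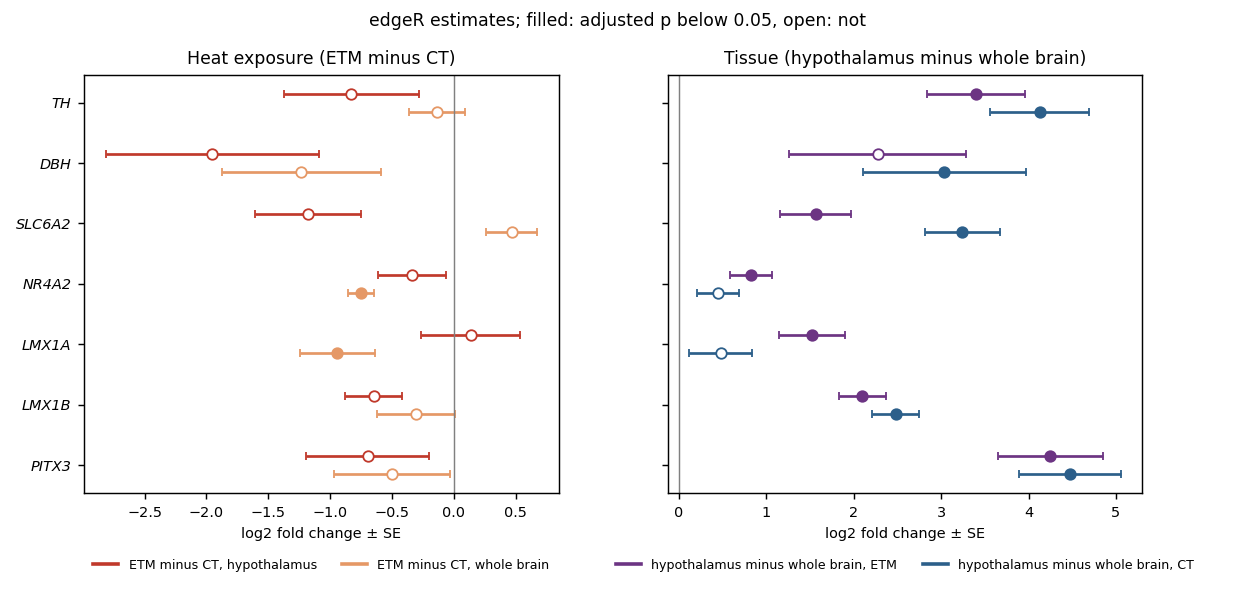
Log2 fold changes with SE bars (horizontal axes) for ETM over CT in hypothalamus and whole brain (left) and for hypothalamus over whole brain in ETM and CT embryos (right), for the 6 members and PITX3; filled points have an edgeR adjusted p below 0.05. On the left only NR4A2 and LMX1A in whole brain are filled, at −0.75 and −0.94, and on the right all estimates are above 0.

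Per kilobase of transcript, which allows levels of different genes to be set side by side, TH and NR4A2 led in hypothalamus. In ETM hypothalamus TH averaged 16.5 ± 16.0 and NR4A2 12.2 ± 5.94 CPM per kilobase (SD, n = 3), which overlapped, followed by PITX3 at 4.06 ± 3.64, SLC6A2 at 3.94 ± 3.04, LMX1B at 2.43 ± 0.502, DBH at 1.73 ± 1.73 and LMX1A at 1.49 ± 0.767. This ETM order uses the counts of library 1 and was not recomputed with its recovered reads. Those reads put DBH there at 16.1 CPM, against 3.66 CPM from the counts, so the place of DBH is not settled. In CT hypothalamus TH averaged 28.8 ± 9.47 and NR4A2 15.2 ± 1.43 CPM per kilobase, followed by SLC6A2 at 8.79 ± 2.26, DBH at 6.76 ± 5.49, PITX3 at 6.45 ± 0.464, LMX1B at 3.80 ± 0.860 and LMX1A at 1.34 ± 0.410. The ranges of mean ± SD of SLC6A2, DBH and PITX3, neighbours in the CT order, overlapped. Within each CT hypothalamus library SLC6A2 was above PITX3, at 6.441, 8.974 and 10.94 against 6.015, 6.937 and 6.392 CPM per kilobase. DBH was above both in CT hypothalamus libraries 1 and 3 and below both in library 2. In whole brain NR4A2 led, at 6.83 ± 0.565 in ETM and 11.2 ± 0.914 in CT libraries, and TH at 1.54 ± 0.223 in ETM and 1.65 ± 0.111 in CT libraries. The other members averaged 1.32 CPM per kilobase or less in whole brain, and PITX3 was the lowest of those tested, at 0.208 ± 0.0697 in ETM and 0.288 ± 0.0971 in CT libraries.

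Of 10 genes of catecholamine synthesis and its cofactor tested, 8 were higher in hypothalamus in ETM embryos, where 29.3% of all genes were, and 5 in CT embryos, where 16.7% were, with 0 lower in either. TH is among the 8, and TH and DBH are among the 5. DDC, the decarboxylase that makes dopamine and also serotonin, measured 148.5, 26.8 and 57.2 CPM in ETM hypothalamus, against 211.2, 204.7 and 231.3 CPM in CT hypothalamus. It was higher in hypothalamus than in whole brain by 3.11 ± 0.47 in ETM embryos (edgeR adjusted p = 8.17e-05) and by 4.31 ± 0.48 in CT embryos (edgeR adjusted p = 1.83e-05). GCH1, which makes the cofactor of tyrosine hydroxylase, was higher by 2.60 ± 0.25 in ETM embryos (edgeR adjusted p = 1.98e-06) and by 3.41 ± 0.25 in CT embryos (edgeR adjusted p = 5.55e-07). All 3 ETM hypothalamus libraries were below all CT ones for DDC (log2 fold change −1.49 ± 0.46) and GCH1 (−1.08 ± 0.26), without passing (edgeR adjusted p = 0.313 for DDC and 0.217 for GCH1). Of all genes tested, 7.75% also had every ETM hypothalamus library below every CT one. PNMT, which turns noradrenaline into adrenaline, stayed at or below 0.685 CPM and was not tested.

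In whole brain 1 of 10 synthesis genes was called for heat exposure, beside 44.3% of all genes. It was SPR, which takes part in making the same cofactor, and it fell by 0.65 on the log2 scale (SE 0.13, edgeR adjusted p = 0.00196). SPR measured 21.1, 23.1 and 19.0 CPM in ETM whole brain, against 27.2, 33.1 and 36.2 CPM in CT whole brain. Every ETM library was below every CT one, as for 26% of all genes. The same gene measured 40.9, 34.9 and 33.9 CPM in ETM hypothalamus and 42.5, 33.9 and 35.3 CPM in CT hypothalamus, which overlapped, and the ETM effect differed between tissues by 0.59 ± 0.19 (edgeR adjusted p = 0.0396).

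Of 3 transport and storage genes tested, 3 were higher in hypothalamus in ETM embryos, where 29.3% of all genes were, and 2 in CT embryos, where 16.7% were. The member SLC6A2 is counted in both. SLC18A2, the vesicular monoamine transporter, measured 153.5, 29.8 and 57.4 CPM in ETM hypothalamus, against 185.9, 166.4 and 195.0 CPM in CT hypothalamus. All ETM libraries were below all CT ones, as for 7.75% of all genes, but the log2 fold change of −1.20 ± 0.45 did not pass (edgeR adjusted p = 0.399). SLC6A3, the dopamine transporter, was not found by symbol and was not analysed here.

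The receptors did not share one direction. Between tissues 58.9% of all genes were called in ETM embryos and 34.3% in CT embryos. Of 5 dopamine receptors tested between tissues, DRD2 alone was higher in hypothalamus, by 1.43 ± 0.27 in ETM and 1.52 ± 0.27 in CT embryos, and 3 were lower. DRD1, the main receptor of striatal target neurons, was among them, at a log2 difference of −2.35 ± 0.17 in ETM embryos (edgeR adjusted p = 1.65e-07) and −2.17 ± 0.17 in CT embryos (edgeR adjusted p = 7.98e-07). In whole brain DRD1 rose under heat, with 55.7, 53.0 and 46.0 CPM in ETM against 40.7, 33.4 and 38.7 CPM in CT libraries (log2 fold change 0.41 ± 0.11, edgeR adjusted p = 0.00975). Of 7 adrenergic receptors tested for heat exposure in whole brain, 4 fell and 1 rose, at the same background of 44.3%. ADRA2B, an α2 receptor, fell, at −0.89 ± 0.17 (edgeR adjusted p = 0.00182). ADRA2A, the α2 receptor through which noradrenaline neurons restrain their own firing, stood at −0.47 ± 0.12 (edgeR adjusted p = 0.00842), and ADRA2C rose, by 0.37 ± 0.13 (edgeR adjusted p = 0.0365). The ETM effects of ADRA2B (0.95 ± 0.24, edgeR adjusted p = 0.0137) and ADRA2A (0.50 ± 0.16, edgeR adjusted p = 0.035) differed between hypothalamus and whole brain.

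Of 5 breakdown genes tested in whole brain, 2 rose and 1 fell under heat, where 44.3% of all genes were called. MAOB rose, by 0.34 ± 0.10 (edgeR adjusted p = 0.0185), and MAOA fell, at −0.44 ± 0.14 (edgeR adjusted p = 0.0241). MAOA, the monoamine oxidase of catecholamine neurons, was higher in hypothalamus by 1.32 ± 0.13 in ETM and 1.29 ± 0.13 in CT embryos. In the hypothalamus 0 genes of these lists of synthesis, transport, breakdown and receptors were called for heat exposure.

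Among transcription factors listed for dopamine neurons, 9 of 17 tested were higher in hypothalamus in ETM embryos and 2 lower, and 7 were higher in CT embryos and 4 lower. Of all genes 29.3% were called higher in ETM embryos and 16.7% in CT embryos. The members LMX1A, LMX1B and NR4A2 are among the 9, and LMX1B is among the 7. FOXA2, a forkhead factor of the floor plate and of midbrain dopamine neurons, measured 21.3, 7.91 and 13.5 CPM in ETM hypothalamus and 14.3, 15.8 and 13.8 CPM in CT hypothalamus, and stayed below 0.7 CPM in whole brain. In whole brain 4 of 15 such factors fell under heat and 0 rose, NR4A2 and LMX1A among them, where 44.3% of all genes were called in either direction. OTP, a factor of hypothalamic neurons, also fell, at −1.15 ± 0.24 (edgeR adjusted p = 0.00296). Among factors listed for noradrenaline neurons, 3 of 9 fell in whole brain under heat and 0 rose, beside the same 44.3% of all genes. These were INSM1, which acts in many immature neurons (−1.11 ± 0.14, edgeR adjusted p = 0.000208), GATA3 (−0.93 ± 0.22, edgeR adjusted p = 0.00649) and HAND1, which was below 1 CPM in all libraries.

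The profile of each member over the 12 libraries was compared with 11789 named genes of at least 1 CPM on average, by the root mean square difference of log2(CPM + 0.5) after centring each gene. For PITX3 the nearest gene was TH, at 0.285, and no named gene was closer to TH than PITX3 was. The genes nearest to TH by symbol were SLC18A2 at 0.398, DDC at 0.438 and GCH1 at 0.446, which are genes of the same pathway, then PAX5 at 0.532 and SLC10A4 at 0.598. DBH was far from TH, at 1.44, with 768 genes closer to TH. NR4A2, at 1.465, and LMX1A, at 1.471, were farther still. The distances used the counts of ETM hypothalamus library 1, where DBH stood at 3.66 CPM. They were not recomputed with its recovered reads, which put DBH at 16.1 CPM. Among the genes nearest to DBH were IRX4, NMU, SLC17A8 and OTP, at 0.87 to 0.98. IRX4 measured 5.94, 1.68 and 3.42 CPM in ETM hypothalamus and 11.4, 4.14 and 7.44 CPM in CT hypothalamus, so its library 2 was the lowest in both groups, as for DBH. Since IRX4 was picked by its nearness to DBH, this likeness is no separate result.

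The other members had other neighbours. SLC6A2 was nearest to PAX2 (0.488), GCH1, EN1, RET and GRP, of which PAX2 and EN1 are midbrain-hindbrain factors. LMX1B was nearest to SMOC1 (0.311), MC5R, VAMP1, GATA2 and SH3TC2. NR4A2 was nearest to PCDH10 (0.151), TRAPPC5, LSS, NDRG4 and MVD, and LMX1A to DTX1 (0.198), APLN, SLC25A39, RASSF1 and ACOT7.

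**Figure D4:**
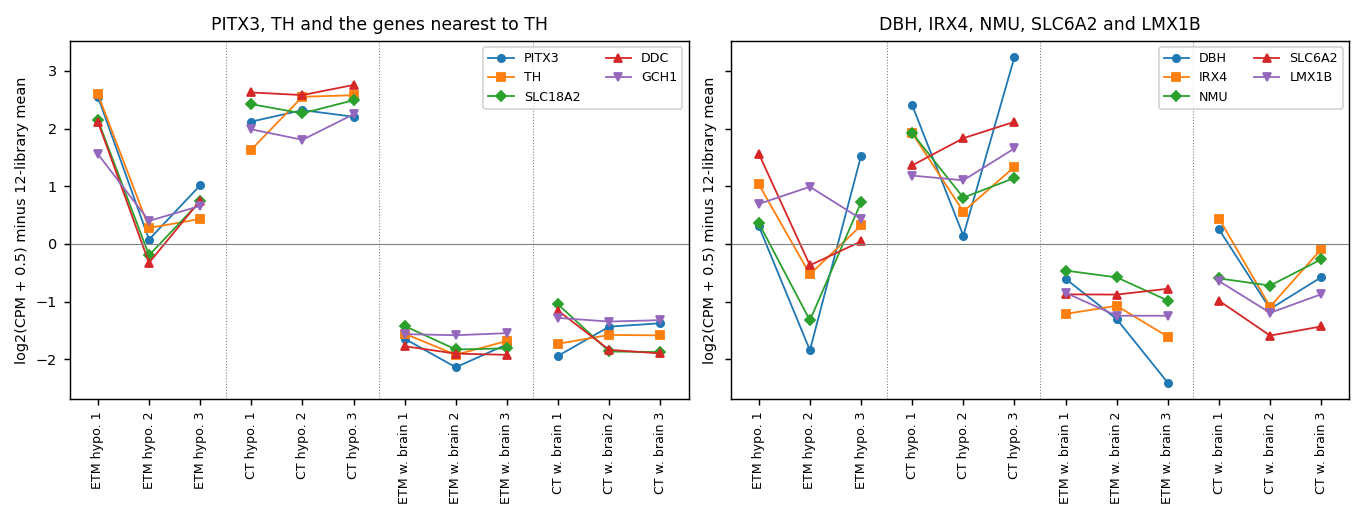
Centred log2(CPM + 0.5) (vertical axes) over the 12 libraries (horizontal axes), with lines joining 1 gene's values within a group: PITX3, TH and genes nearest to TH (left), and DBH with IRX4, NMU, SLC6A2 and LMX1B (right). On the left all 5 genes are low in ETM hypothalamus libraries 2 and 3 beside library 1 and near their lowest in whole brain. On the right DBH, IRX4 and NMU are at their group's lowest in library 2 of both hypothalamus groups. IRX4 and NMU were picked by nearness to DBH, and SLC18A2, DDC and GCH1 by nearness to TH.

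Some markers of serotonin neurons also differed among the hypothalamus libraries. SLC6A4, the serotonin transporter, measured 171.0, 6.97 and 53.0 CPM in ETM hypothalamus, against 418.8, 285.7 and 434.5 CPM in CT hypothalamus. TPH2, which makes serotonin, measured 81.1, 4.30 and 26.6 CPM in ETM hypothalamus, against 232.3, 138.2 and 178.2 CPM in CT hypothalamus. In both, ETM hypothalamus library 2 was the lowest and library 1 the highest of the ETM group, the order also seen for SLC18A2 and DDC, which serotonin neurons share. FEV, a defining factor of serotonin neurons, was at 0 in 10 libraries and at most 0.259 CPM. Summed over 14 serotonin neuron markers, the level ran from 378.9 to 945.2 CPM in ETM hypothalamus and from 1202 to 1466 CPM in CT hypothalamus. Of 13 tested for heat exposure in the hypothalamus, 10 had a negative log2 fold change and 0 were called, where 0.0454% of all genes were called. Their median log2 fold change was −0.38, beside 0.007 over all genes. The list holds the member LMX1B and also DDC, SLC18A2 and GCH1, described above, so it is not separate from them.

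The lists of catecholamine neurons hold members and genes already described, so their sums are not separate from them. Midbrain dopamine neuron markers summed to 593.3 to 1231 CPM in ETM hypothalamus and 1179 to 1235 CPM in CT hypothalamus, which overlapped, and noradrenaline neuron markers to 222.6 to 433.9 CPM in ETM and 451.6 to 564.2 CPM in CT hypothalamus. Midbrain and hindbrain region markers summed to 161.1 to 291.6 CPM in ETM and 219.6 to 234.4 CPM in CT hypothalamus, with library 2 the lowest and library 1 the highest of the ETM group. EN1 had that order, but GBX2 (0.732, 7.22 and 1.14 CPM) and BARHL1 (11.5, 13.6 and 11.3 CPM) were highest in ETM library 2. Pan-neuron markers spread less, from 8998 to 11660 CPM in ETM and from 9888 to 10770 CPM in CT hypothalamus. Library 2 was again the lowest and library 1 the highest of the ETM group. TUBB3, NEFL and NEFM, the most abundant of these markers, had that order, as did SNAP25, ELAVL4 and RBFOX3. MAP2, STMN2 (890.1, 1038 and 1099 CPM), SYT1 and GAP43 were highest in ETM library 3, and UCHL1 and SYP in ETM library 2. The sums of regional and pan-neuron markers, though not every marker, thus differed among the ETM hypothalamus libraries along with TH, SLC6A2 and PITX3. The part of that spread in the treatment comparison was not tested.

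Counts of W-linked genes, present in females alone among birds, were 0.113% of the total in ETM hypothalamus library 2, 0.12% in CT hypothalamus library 3 and 0.147% in ETM whole brain library 1, against 0.0105% to 0.0174% in the other 9 libraries. With that share as a covariate 1 of 6 members was called in whole brain, NR4A2, with LMX1A at an edgeR adjusted p of 0.067.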

How the data were processed

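RNA was sequenced from 12 libraries in 4 groups of 3. The authors deposited counts per gene, made with featureCounts of Subread 2.0.6 on build GRCg7b per the submitters' processing notes, and FPKM values for the same rows. The aligner and the strand setting are unknown (not given in the sources used). No member overlaps another row. The 634 rows without a gene name held 0.513% of counts and were kept.

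Tests on the deposited counts used R 4.3.3 and edgeR 4.0.16 (TMM scaling, filterByExpr, quasi-likelihood test, Benjamini-Hochberg adjustment over all genes tested, called at adjusted p below 0.05). Treatment was tested on the 6 libraries of a tissue, and tissue and the difference of the ETM effect in 1 fit of 12 libraries with 4 groups. Fold changes are edgeR's shrunken log2 values. Their SE was derived from the unshrunk value and the F statistic and is approximate. CPM used TMM-scaled totals of the 12-library fit. Levels between genes are CPM per kilobase of deposited gene length, in place of the deposited FPKM, since that column disagreed with the counts in 1 library. Reads recovered from FPKM were whole, within 0.01, for 100% of values in that library. Replicates differed by more than counting noise (chi-square per degree of freedom 5.80 to 37.4 over 12 pairs), so none was counted as a duplicate. Intervals and floors cover counting error only.

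The members, the 17 gene lists (160 genes, 9 not found by symbol) and the tests were chosen with earlier results of these data known. The genes named are the members, a set of marker genes, up to 4 genes of the lowest p in each list and comparison, and the 5 nearest profiles of each member. Marker genes of the label check (NKX2-1, POMC, OXT, FEZF1, SIX6, VIP), PNMT and values beside them were added after their values were seen. A few genes picked by the rule are not reported here. The procedure was tested on simulated counts with known changes. Alternatives were DESeq2 1.42.0, other scalings and filters, protein-coding genes alone, a W-linked covariate, the replicate number as a block, limma 3.58.1 on log2(FPKM + 1) and log2(FPKM + 0.1), which hold the differing column, recovered reads, a fit of other libraries, and each library left out.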

Additional observations from a re-analysis of the deposited data

How the results depend on the processing

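Results of the 6 members were recomputed under up to 23 alternatives each. For heat exposure in the hypothalamus, the count of members called was 0, and 0 to 1 with each library left out (SLC6A2 without ETM hypothalamus library 1). In whole brain it was 2, and 1 with DESeq2, with 1 fit of 12 libraries and with the W-linked covariate, and 1 to 2 with each library left out, since LMX1A was lost. For the difference of the ETM effect it was 0, and 1 with at least 1 CPM in 3 libraries, library totals alone, no count filter, protein-coding genes alone, limma on log2(FPKM + 0.1) or log2(FPKM + 1), recovered reads, the W-linked covariate and the replicate block, each time SLC6A2. It was 0 to 2 with each library left out. The sign of that difference for DBH turned with recovered reads, at 0.17, and ran from −1.92 to 0.10 with each library left out. It ran from −0.068 to 0.60 for NR4A2 and from −1.21 to 0.20 for PITX3, and the hypothalamus effect on LMX1A ran from −0.32 to 0.42. The cause was not tested. NR4A2 in whole brain and the tissue differences of TH, SLC6A2, LMX1B and PITX3 kept their calls in all alternatives run. Over all genes, 7 were called for heat exposure in the hypothalamus, 195 with DESeq2, 39 without ETM hypothalamus library 1, and 0 with recovered reads. Same-numbered ETM and CT samples did not deviate together, with correlations of 0.0446, −0.247 and −0.355 in the hypothalamus and of −0.0199, −0.0369 and −0.0181 in whole brain. Same-numbered samples of the 2 tissues gave 0.016, −0.0715 and −0.0333 in CT and −0.138, −0.271 and 0.13 in ETM embryos. Differently numbered samples reached 0.373 between ETM hypothalamus library 2 and CT hypothalamus library 3. They reached 0.432 between ETM hypothalamus library 2 and ETM whole brain library 1. These libraries held the highest W-linked shares. No pairing by number was seen, and groups of 3 libraries cannot exclude one. Depth limits LMX1A, DBH and PITX3 in whole brain, where libraries held as few as 14, 2 and 5 reads.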
